A study of Homo sapiens with 8 samples.

Results

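The 10 genes described here are 8 human metallothionein genes (MT2A, MT1X, MT1E, MT1F, MT1G, MT1H, MT1M and MT1A), the metal-sensing transcription factor MTF1 and the zinc exporter SLC30A1, out of 31402 entries of the expression table. They were taken by gene symbol, and none of the 10 symbols occurred more than once, so the mean level over the 8 libraries, which would have chosen between repeated entries, decided nothing. The list was drawn up with results of these libraries known, and the p-values of its genes are therefore not independent evidence of their direction. RNA was sequenced from KCL-22, a human line of chronic myeloid leukemia in blast crisis driven by the BCR-ABL fusion kinase, after tagging of the cells with the ClonTracer DNA barcode library. There were 4 libraries of clones, 3 of resistant populations and 1 of a vehicle population.

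Each clone was sorted as a single cell from a resistant population and expanded, so each stands for 1 cell's descendants. Clone 1 and Clone 2 were taken from cells grown out under GNF-2 and are resistant to 2.5 µM GNF-2. Clone 4 had the same origin and is resistant to imatinib, nilotinib and GNF-2 at the doses used for the populations. These 3 clones had not met a catalytic inhibitor, which is a compound that binds the ATP site of ABL. Clone 3 came from an imatinib-resistant population, had not met an allosteric inhibitor and is resistant to imatinib and nilotinib. The resistant populations had been kept in imatinib (2.5 µM, 27 days), nilotinib (0.3 µM, 27 days) or GNF-2 (2.5 µM, 21 days), and the vehicle population in 0.1% DMSO for 7 days. Imatinib and nilotinib are catalytic inhibitors, whereas GNF-2 acts allosterically through the myristate pocket of ABL. By resistance, the labels form a catalytic group of 3 libraries (imatinib population, nilotinib population and Clone 3), a GNF-2 group of 3 (GNF-2 population, Clone 1 and Clone 2), Clone 4 alone and vehicle alone.

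Metallothioneins are small cysteine-rich proteins that bind zinc, copper and cadmium and buffer free zinc in the cell. MTF1 senses zinc, moves to the nucleus and binds metal response elements upstream of the metallothionein genes and of SLC30A1, whose product carries zinc out of the cell across the plasma membrane. Transcript levels of MT2A, MT1X and SLC30A1 are therefore widely used as readouts of available zinc.

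The coding sequences of MT2A and MT1X are shown because nearly all metallothionein signal in these libraries came from this pair and because the 2 genes are close in sequence. They are GENCODE 29 coding sequences without the stop codon, and capitals mark TGC and TGT, the cysteine codons.
MT2A: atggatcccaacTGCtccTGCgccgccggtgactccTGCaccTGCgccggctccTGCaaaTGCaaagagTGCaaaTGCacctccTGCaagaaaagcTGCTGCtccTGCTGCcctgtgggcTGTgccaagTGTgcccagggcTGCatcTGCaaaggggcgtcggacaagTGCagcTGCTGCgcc
MT1X: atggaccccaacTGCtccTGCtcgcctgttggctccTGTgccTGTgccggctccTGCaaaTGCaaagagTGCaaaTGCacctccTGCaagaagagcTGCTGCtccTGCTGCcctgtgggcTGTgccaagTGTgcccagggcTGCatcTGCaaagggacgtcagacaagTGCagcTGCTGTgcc
Each has 183 bases, and 20 of its 61 codons (32.8%) are cysteine codons, as in the other 6 metallothioneins described here. MT2A and MT1X differ at 14 of the 183 positions, an identity of 92.3%, and the other 6 coding sequences are 88.5% to 92.9% identical to MT1X. For windows of 50 bases, 1 annotated transcript per gene was used, of 450 bases for MT1X and 786 bases for MT2A. Of the MT1X transcript, 45.1% (181 of 401 windows) was also found in a transcript of another gene, against 4.88% of the MT2A transcript (36 of 737). These shares depend on the transcript chosen, and other transcripts of the 2 genes were not examined. The sources used here do not say how the authors' counting divided such reads, so by this measure the MT1X level is the less certain of the 2.

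The 250 bases before the annotated start are shown for MT2A and MT1X, the expressed metallothioneins, for MT1H, which was listed at 0, and for SLC30A1. They are RefSeq sequences on GRCh38.p14, printed in the direction of the gene, and capitals mark matches to the core of the metal response element, spelled TGCACNC or TGCGCNC and searched on both strands, with overlapping matches counted.
MT2A: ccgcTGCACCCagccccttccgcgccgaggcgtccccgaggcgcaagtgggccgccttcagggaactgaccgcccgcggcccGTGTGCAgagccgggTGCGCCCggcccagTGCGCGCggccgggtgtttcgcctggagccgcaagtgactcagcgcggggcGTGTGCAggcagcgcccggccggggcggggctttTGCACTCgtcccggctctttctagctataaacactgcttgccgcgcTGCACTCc
MT1X: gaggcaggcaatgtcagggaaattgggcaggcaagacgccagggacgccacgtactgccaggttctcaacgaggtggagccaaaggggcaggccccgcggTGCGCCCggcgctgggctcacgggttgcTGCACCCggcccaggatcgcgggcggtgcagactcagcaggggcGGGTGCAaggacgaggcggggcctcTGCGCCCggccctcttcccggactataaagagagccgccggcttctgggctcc
MT1H: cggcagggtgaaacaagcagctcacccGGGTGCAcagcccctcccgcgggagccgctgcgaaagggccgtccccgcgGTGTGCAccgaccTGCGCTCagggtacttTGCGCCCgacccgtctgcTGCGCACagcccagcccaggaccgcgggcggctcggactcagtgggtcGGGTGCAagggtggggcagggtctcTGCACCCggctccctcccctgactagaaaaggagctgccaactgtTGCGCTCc
SLC30A1: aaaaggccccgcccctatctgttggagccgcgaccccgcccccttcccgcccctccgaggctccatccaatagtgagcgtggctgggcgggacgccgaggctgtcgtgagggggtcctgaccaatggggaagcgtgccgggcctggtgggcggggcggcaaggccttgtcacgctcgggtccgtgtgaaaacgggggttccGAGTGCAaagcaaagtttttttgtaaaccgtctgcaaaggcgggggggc
They lie at chr16:56608334-56608583 (plus strand), chr16:56682220-56682469 (plus strand), chr16:56669564-56669813 (plus strand) and chr1:211579162-211579411 (minus strand), in the order printed. The window of MT2A held 7 matches, 5 of them in the direction of the gene, and that of MT1X held 4, of which 3 ran in that direction. MT1H, listed at 0 in all libraries, held 8 matches, SLC30A1 held 1 and MTF1 held 0. Of 35116 promoters of the same length, 24.8% held at least 1 match, 0.37% at least 4, 0.0313% at least 7 and 0.0171% at least 8. The table held promoters of 5 of the 10 genes; MT1E, MT1F, MT1G, MT1M and MT1A are named only. A match describes letters in the sequence and says nothing of binding in these cells.

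**Figure D1:**
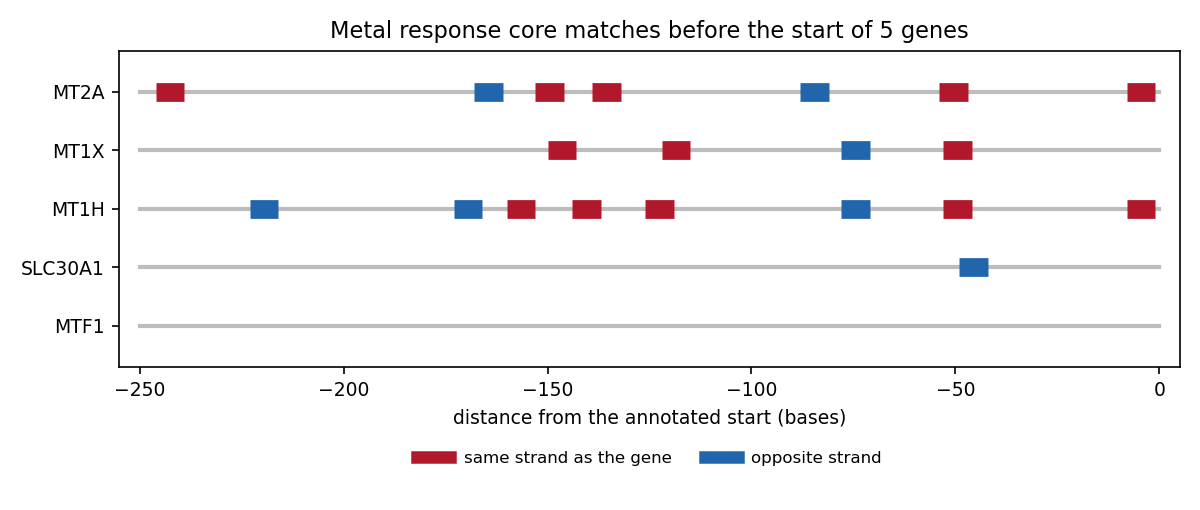
Positions of metal response core matches in the 250 bases before the annotated start of 5 genes. The horizontal axis is the distance from the start in bases, red blocks lie in the direction of the gene and blue blocks on the opposite strand; MT2A has 7 blocks, MT1X 4, MT1H 8, SLC30A1 1 and MTF1 0.

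Levels are FPKM, fragments scaled to transcript length and to the mapped fragments of the library, which can be set side by side between genes. Depth, estimated roughly from 682 intronless genes, lay between 17000000 fragments (GNF-2 population) and 41000000 (Clone 1), so that 1 fragment on a transcript of 400 bases was worth 0.0616 FPKM in Clone 1 and 0.147 FPKM in the GNF-2 population. Of the 6 leukocyte markers PTPRC, SPN, LCP1, CORO1A, CD33 and ITGB2, 5 had an FPKM of at least 1 in all libraries, and their sum was 325 to 565 in the clones, 339 to 574 in the resistant populations and 565 in vehicle. The 5 erythroid markers were below 1 FPKM in all libraries, as were 4 of the 5 fibroblast markers, and 3 of the 5 epithelial markers. The sum of the epithelial list, carried by KRT8 and KRT18, was 33.7 to 125 in the clones, 39.4 to 43.8 in the resistant populations and 43.3 in vehicle. The T cell list summed to 0 to 12.5 in the clones, 1.98 to 10.7 in the resistant populations and 32.3 in vehicle, and the B cell list to 35.7 to 98.9, 17.4 to 90.9 and 28.7. ABL1 averaged 74.6 FPKM in the clones and 92.9 in the resistant populations, a log2 difference of -0.32 (limma, Benjamini-Hochberg adjusted p = 0.295), and BCR 77.3 and 92.9, a log2 difference of -0.29 (adjusted p = 0.385).

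MT2A and MT1X were strongly expressed in all 4 populations and much lower in all 4 clones. In the resistant populations and in vehicle MT2A stood between rank 41 and rank 88 of all genes by level, whereas in the clones it stood between rank 381 and rank 1938. SLC30A1 had a lower mean in the clones too, but its groups overlapped, and MTF1 itself lay within a narrow range in all 8 libraries. The other 6 metallothionein genes were listed at 0 or had below 0.5 FPKM.

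MT2A (Entrez 4502; chromosome 16, 56642477 to 56643409 on GRCh37), the most abundant metallothionein here, had 43.1 FPKM in Clone 1, 179.2 in Clone 2, 108.4 in Clone 3 and 59.7 in Clone 4. The imatinib population had 1657 FPKM, the nilotinib population 748.0, the GNF-2 population 917.3 and vehicle 798.9. Every clone was below every population, and Clone 2, the highest clone, was 4.46-fold below vehicle. MT2A averaged 97.6 ± 61.0 FPKM in the clones (SD, n = 4) and 1107 ± 483 FPKM in the resistant populations (SD, n = 3), 11.3-fold apart. On the log2(FPKM + 1) scale the difference was -3.62 with an SE of 0.50 and a 95% interval from -4.77 to -2.46 (limma across all genes tested, Benjamini-Hochberg adjusted p = 0.0101).

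MT1X (Entrez 4501; chromosome 16, 56716381 to 56718108 on GRCh37), a metallothionein of the MT1 group, had 21.5 FPKM in Clone 1, 95.9 in Clone 2, 47.9 in Clone 3 and 24.8 in Clone 4. The imatinib population had 996.5 FPKM, the nilotinib population 521.6, the GNF-2 population 576.5 and vehicle 470.4. Again no clone reached any population, and the clones stood in the same order as for MT2A, with Clone 2 highest, then Clone 3, Clone 4 and Clone 1. MT1X averaged 47.5 ± 34.3 FPKM in the clones (SD, n = 4) and 698 ± 260 FPKM in the resistant populations (SD, n = 3), 14.7-fold apart. Its log2 difference was -4.04 with an SE of 0.51 and a 95% interval from -5.22 to -2.86 (limma, Benjamini-Hochberg adjusted p = 0.00737).

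Of the 4 genes among the 10 that could be tested, both of these passed, in the lower direction. Among all 11843 genes tested, 883 (7.46%) passed in this comparison, 684 (5.78%) lower and 199 (1.68%) higher in the clones, and 18.1% of genes were lower in the clones without overlap, as MT2A and MT1X were. By log2 difference MT1X was the 5th and MT2A the 10th from the lowest of the 11843 genes. Rescaling the libraries by median ratios changed the split of calls to 473 lower and 392 higher, and quantile normalization changed it to 491 lower and 436 higher, with the median log2 difference of all genes at 0.025 and 0.034 in place of -0.079. Both genes still passed under either rescaling. With the resistance group added to the model, a choice made after seeing the data, neither passed (MT1X log2 -3.76, limma adjusted p = 0.0504; MT2A log2 -3.36, adjusted p = 0.0631). Nor did either pass with the population of origin as a block, also added later (MT1X log2 -4.09, limma adjusted p = 0.087; MT2A log2 -3.70, adjusted p = 0.0921), a fit in which 13 genes passed and 3 residual degrees of freedom remained. In RNA from whole cultures, fewer cells with the transcript and less transcript per cell cannot be told apart. Descent from 1 cell, sorting, expansion and the culture conditions of the clones cannot be told apart either, since all clones share them and no population does, and the labels do not say whether inhibitor was present when clone RNA was taken.

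**Figure D2:**
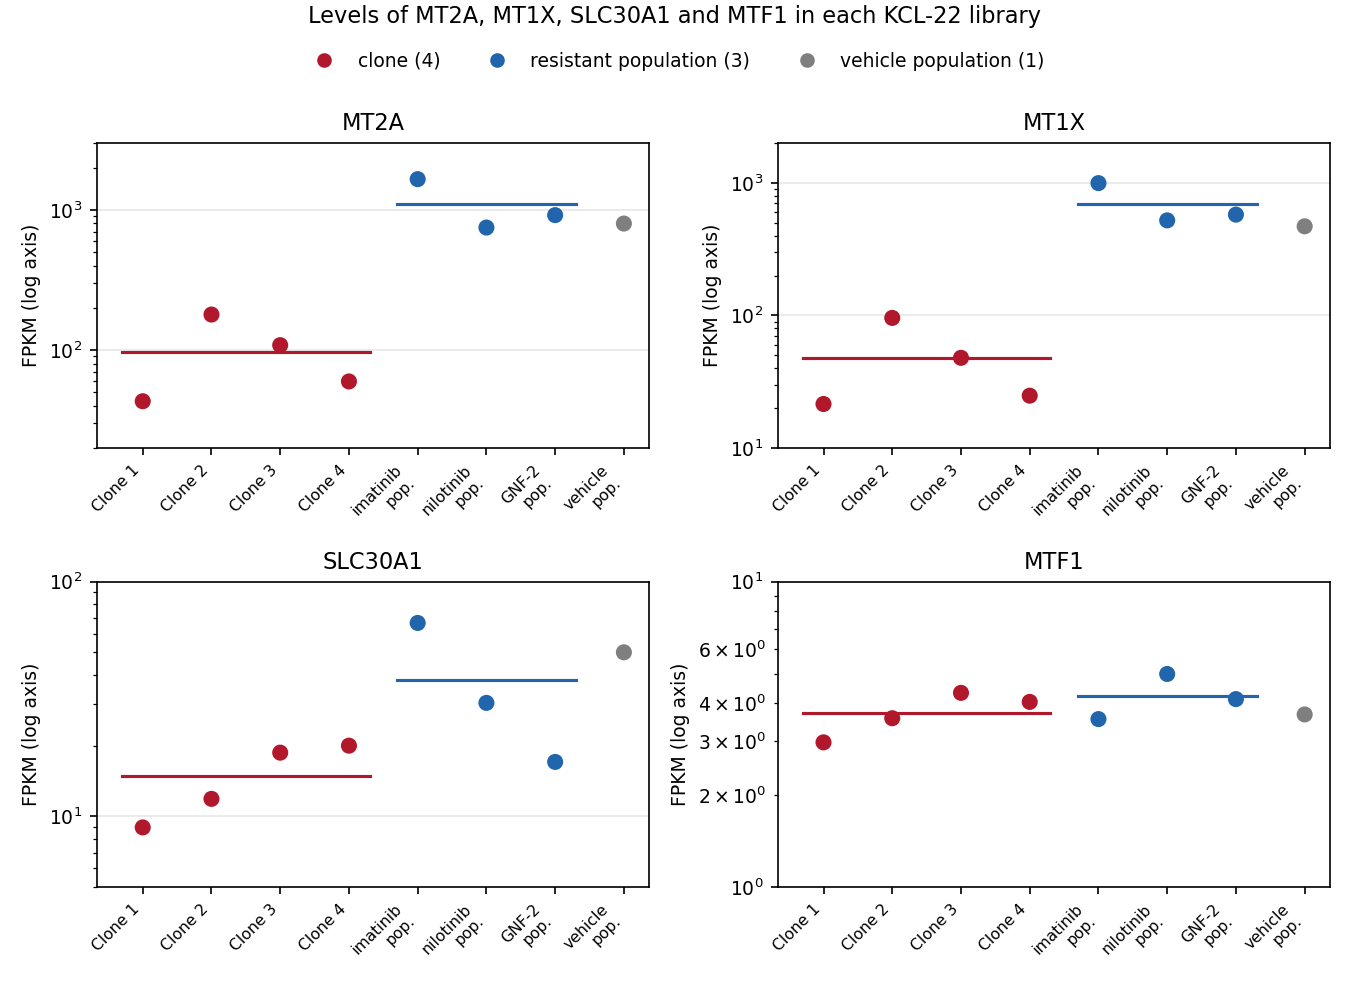
Levels of MT2A, MT1X, SLC30A1 and MTF1 in FPKM on log axes, 1 point per library, with the 4 clones in red, the 3 resistant populations in blue and vehicle in grey; horizontal lines are the means of the clones and of the resistant populations. MT2A and MT1X show no overlap between clones (at most 179.2 and 95.9) and populations (at least 748.0 and 470.4), SLC30A1 overlaps through the GNF-2 population at 17.0, and MTF1 lies between 2.98 and 4.99 throughout.

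Other values moved with the same split. Of the genes tested, 166 to 201 were listed at 0 in each clone, 102 to 125 in each resistant population and 127 in vehicle. PTPRC, the leukocyte phosphatase CD45, averaged 25.9 FPKM in the clones and 61.2 in the resistant populations (log2 difference -1.27, limma adjusted p = 0.0307). It was the 1 of the 6 leukocyte markers that passed, and by sign 4 of the 6 were lower and 2 higher in the clones. SPN, 1 of those higher, had 115 to 212 FPKM in the clones and 72.3 to 130 in the resistant populations. The part of the listed zeros and of PTPRC in the metallothionein difference was not tested. FPKM sums did not split this way, with 493644 to 579873 in the clones, 510246 to 519028 in the resistant populations and 504136 in vehicle.

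The distribution of log2 differences over all genes shows where the 4 genes stood. MT1X and MT2A lay in its far lower tail, SLC30A1 was the 551st gene from the lowest, and MTF1 lay near the middle of the distribution.

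**Figure D3:**
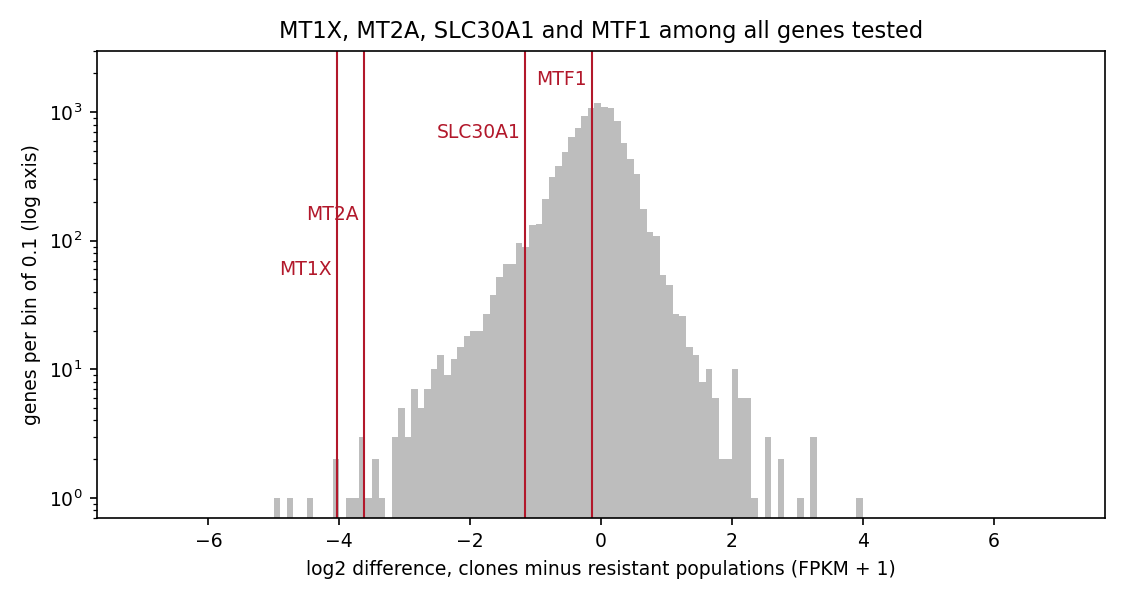
Histogram of the log2 difference (FPKM + 1), clones minus resistant populations, for 11843 genes, with a log vertical axis giving genes per bin. Red lines mark MT1X at -4.04, MT2A at -3.62, SLC30A1 at -1.15 and MTF1 at -0.14.

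Summed over the 8 metallothionein genes, the level was 64.6 FPKM in Clone 1, 275 in Clone 2, 156 in Clone 3 and 84.5 in Clone 4. It was 2654 FPKM for imatinib, 1270 for nilotinib and 1494 for GNF-2 among the resistant populations, and 1269 in vehicle. Metallothionein transcripts thus took 0.0111% to 0.0552% of the FPKM sum in the clones, 0.245% to 0.519% in the resistant populations and 0.252% in vehicle. MT2A and MT1X made up between 99.9% and 100% of this sum in every library. The ratio of MT2A to MT1X was 2.01, 1.87, 2.26 and 2.40 in Clones 1 to 4, 1.66, 1.43 and 1.59 in the imatinib, nilotinib and GNF-2 populations, and 1.70 in vehicle. MT2A was thus the higher of the pair in all 8 libraries, and the ratio in each clone was above that in each population.

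Set against the resistant population that the labels name as its origin, which may not be the very culture sequenced, each clone had a lower level of both genes, with 1 library on each side and therefore no test. Clone 1 was 21.3-fold below the GNF-2 population for MT2A and 26.8-fold for MT1X. Clone 2 was 5.12-fold and 6.01-fold below the same population, and Clone 4 15.4-fold and 23.2-fold. Clone 3 was 15.3-fold below the imatinib population for MT2A and 20.8-fold for MT1X. Clone 2 thus had the smallest difference and Clone 1 the largest. The share of all genes at least 2-fold lower, counting pairs where the higher value reached 5 FPKM, was 6.73% in Clone 1, 6.48% in Clone 2 and 6.46% in Clone 4 against the GNF-2 population, and 5.7% in Clone 3 against the imatinib population. Clones 1, 2 and 4 share the GNF-2 population library in these ratios, so they are not independent of each other.

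The remaining metallothionein genes of the cluster on chromosome 16 gave next to no signal. MT1F, MT1H, MT1M and MT1A were listed at 0 in all 8 libraries. MT1E was listed at 0.149 FPKM in the GNF-2 population and at 0 in the other libraries, and MT1G at 0.161 FPKM in Clone 3, 0.466 in the imatinib population and 0 in the other 6. At the estimated depths these values are worth only a handful of fragments each. None of the 6 genes had a mean FPKM of at least 1, so none was tested, whereas the 4 genes that passed that filter were above 0 in all libraries. A listed 0 can be a failed estimate where reads match several copies, and 12339 of the table's entries were listed at 0 in all libraries. The interval the table gives for MT1A starts at the first base of MT2A, so the 2 entries overlap on the genome. That interval also spans those of MT1M, MT1E, MT1L and MT1JP, and the interval of MT1M spans those of MT1E and MT1L. The part of these overlaps in the listed zeros was not tested. Of 7 further metallothionein entries, which include MT3, MT4 and pseudogenes, 6 were listed at 0 throughout, and the highest value was 1.02 FPKM, for MT1L in Clone 2.

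SLC30A1 (Entrez 7779; chromosome 1, 211748380 to 211752099 on GRCh37), the plasma membrane zinc exporter ZnT1, had 8.96 FPKM in Clone 1, 11.9 in Clone 2, 18.7 in Clone 3 and 19.99 in Clone 4. The imatinib population had 66.7 FPKM, the nilotinib population 30.4, the GNF-2 population 17.0 and vehicle 49.997. Clone 3 and Clone 4 were thus above the GNF-2 population, and the imatinib population and vehicle were the highest libraries. SLC30A1 averaged 14.9 ± 5.31 FPKM in the clones (SD, n = 4) and 38.1 ± 25.7 FPKM in the resistant populations (SD, n = 3). The log2 difference of -1.15 (SE 0.46, 95% interval -2.21 to -0.093) did not pass after adjustment (limma, Benjamini-Hochberg adjusted p = 0.157). It was -0.65 without the imatinib population and -1.61 without the GNF-2 population, the extremes when 1 library was left out.

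Against their populations of origin, the clones split for SLC30A1. Clone 1 and Clone 2 were 1.90-fold and 1.44-fold below the GNF-2 population, Clone 4 was 1.17-fold above it, and Clone 3 was 3.57-fold below the imatinib population. Clone 4 therefore had low metallothionein levels beside an SLC30A1 level no lower than that of its population of origin.

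Of the 4 genes, SLC30A1 alone separated the inhibitor classes without overlap. The imatinib population (66.7 FPKM), the nilotinib population (30.4) and Clone 3 (18.7) were all above the GNF-2 population (17.0), Clone 1 (8.96) and Clone 2 (11.9). Clone 4, resistant to both classes, lay between the group means at 19.99. The catalytic group averaged 38.6 ± 25.0 FPKM and the GNF-2 group 12.6 ± 4.1 FPKM (SD, n = 3 each), a log2 difference of 1.39 with an SE of 0.46. The difference had an unadjusted p of 0.0214 and did not pass (limma, Benjamini-Hochberg adjusted p = 0.846), and it was 0.91 without the imatinib population. Of all genes, 4.08% were higher in the catalytic group without overlap, and 0.0338% passed in either direction. The GNF-2 group was also below vehicle in each of its 3 libraries, with a log2 difference of -1.95 (SE 0.66, limma adjusted p = 0.441), as were 26.2% of all genes. The lowest values of both resistant groups came from clones. With clone against population as a term of the model, the difference between the resistant groups was 1.08 (SE 0.34, limma adjusted p = 0.811). That of the GNF-2 group from vehicle was then -1.31. The catalytic populations were kept in inhibitor for 27 days and the GNF-2 population for 21, so among populations the inhibitor class cannot be told apart from time. Doses were 2.5 µM for imatinib and GNF-2 and 0.3 µM for nilotinib. Each compound was used at 1 dose, so compound and dose cannot be told apart, and no treatment time is given for the clones.

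MTF1 (Entrez 4520; chromosome 1, 38275238 to 38325292 on GRCh37), the transcription factor that drives the genes above in response to zinc, had 2.98 FPKM in Clone 1, 3.57 in Clone 2, 4.32 in Clone 3 and 4.04 in Clone 4. The imatinib population had 3.55 FPKM, the nilotinib population 4.99, the GNF-2 population 4.12 and vehicle 3.67. The groups overlapped widely, and the highest library was 1.68-fold above the lowest. MTF1 averaged 3.73 ± 0.589 FPKM in the clones (SD, n = 4) and 4.22 ± 0.724 FPKM in the resistant populations (SD, n = 3). The log2 difference of -0.14 (SE 0.18, 95% interval -0.55 to 0.27) did not pass (limma, Benjamini-Hochberg adjusted p = 0.644), and its sign was positive, at 0.08, after quantile normalization.

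Among the resistant populations, the metallothioneins differed most from vehicle in the imatinib population, where MT2A was 2.07-fold and MT1X 2.12-fold higher; 0.726% of all genes were at least 2-fold higher there. In the nilotinib population the ratio to vehicle was 0.936 for MT2A and 1.11 for MT1X, and in the GNF-2 population 1.15 and 1.23. Metallothionein levels of these 2 populations were thus close to those of vehicle, although neither has a replicate. For SLC30A1 the ratio to vehicle was 1.33 under imatinib, 0.609 under nilotinib and 0.341 under GNF-2, and 2.7% of all genes were at least 2-fold lower in the GNF-2 population. The order of the 3 populations therefore differed between the exporter and the metallothioneins, since the GNF-2 population was lowest for SLC30A1 and second highest for MT2A and MT1X. The clones were 18.5-fold (Clone 1), 4.46-fold (Clone 2), 7.37-fold (Clone 3) and 13.4-fold (Clone 4) below vehicle for MT2A, while the share of genes at least 2-fold lower was 8.65%, 7.46%, 6.86% and 9.2%. All these ratios share the 1 vehicle library.

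Grouped by resistance, none of the 4 genes passed in any of the 3 comparisons. At an unadjusted p below 0.05, limma counted 1 of the 4 in the GNF-2 group against vehicle, 0 in the catalytic group against vehicle and 1 in the catalytic against the GNF-2 group, SLC30A1 both times. Of all 11843 genes tested, 1315, 319 and 577 had an unadjusted p below 0.05 in these comparisons, in the same order. After adjustment, the background share of genes that passed was 0.0929% for the GNF-2 group against vehicle and 0.0338% for the catalytic group against vehicle. MT2A averaged 838 ± 778 FPKM in the catalytic group and 380 ± 470 FPKM in the GNF-2 group (SD, n = 3 each), with a log2 difference of 1.41 (SE 1.34, limma adjusted p = 0.870). MT1X averaged 522 ± 474 FPKM and 231 ± 301 FPKM in these groups, with a log2 difference of 1.45 (SE 1.48, limma adjusted p = 0.871). With clone against population as a term of the model, these differences were 0.29 for MT2A and 0.20 for MT1X. They were 0.56 and 0.57 without the imatinib population, 0.34 and 0.32 without Clone 1, 2.52 and 2.74 without Clone 3, and 2.53 and 2.66 without the GNF-2 population, and none of these fits made a call. Each of these groups holds both clones and populations, and the SDs are about as large as the means. Against vehicle, the log2 difference of the GNF-2 group was -2.04 for MT2A (SE 1.90, limma adjusted p = 0.665) and -2.13 for MT1X (SE 2.09, adjusted p = 0.681). That of the catalytic group was -0.64 for MT2A and -0.68 for MT1X (limma adjusted p = 1 for both). With clone against population as a term of the model all 4 of these differences from vehicle changed sign, to 0.19 and 0.38 in the GNF-2 group and 0.48 and 0.57 in the catalytic group. The differences of the GNF-2 group were -3.17 and -3.34 without the GNF-2 population, and -0.976 and -0.995 without Clone 1. Without Clone 3 the catalytic group was above vehicle by 0.48 for MT2A and 0.61 for MT1X. For MTF1 the log2 differences were 0.21 between the resistant groups, -0.04 for the GNF-2 group against vehicle and 0.17 for the catalytic group against vehicle, and the second of these was positive, at 0.05, without Clone 1 and, at 0.03, with the clone term.

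Zinc enters the cytosol through the SLC39 family of importers and leaves it, for the outside or for organelles, through the SLC30 family. Of 14 importers in the list, 11 were tested between clones and resistant populations, with 7 higher and 4 lower in the clones by sign. Of these 11, 1 passed as higher, 0 passed as lower, and 5 had an unadjusted p below 0.05 (limma). Over all 11843 genes tested, 1.68% passed as higher, 5.78% passed as lower, and 3206 had an unadjusted p below 0.05. The median log2 difference of the 11 was 0.156, against -0.079 over all genes. SLC39A6, a plasma membrane importer, had 36.6, 43.9, 32.2 and 28.2 FPKM in Clones 1 to 4, against 15.0, 21.9 and 20.3 FPKM in the imatinib, nilotinib and GNF-2 populations, and 24.0 in vehicle. All clones were above all populations for it, with a log2 difference of 0.85 (SE 0.19, limma adjusted p = 0.0401). The call of SLC39A6 was lost without a filter on low values (adjusted p = 0.0572), with the resistance group in the model (adjusted p = 0.0853), with the population of origin as a block (adjusted p = 0.177), and when any 1 of the 3 resistant populations or of Clones 1 to 3 was left out (limma adjusted p = 0.0501 to 0.139).

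The importers with the largest differences that did not pass were SLC39A3, SLC39A14 and SLC39A4. SLC39A3 averaged 133.8 FPKM in the clones and 64.6 in the resistant populations (log2 difference 1.02, limma adjusted p = 0.0788). SLC39A14, which also carries iron and manganese, averaged 102.6 and 52.9 FPKM (log2 difference 0.98, limma adjusted p = 0.101). SLC39A4, the importer of dietary zinc in the gut, averaged 74.5 and 48.5 FPKM (log2 difference 0.57, limma adjusted p = 0.171). SLC39A3 and SLC39A14 did not overlap between clones and resistant populations, as 8.17% of all genes did not in the higher direction, whereas SLC39A4 overlapped. With vehicle counted among the populations, a choice made after seeing the data, SLC39A3 and SLC39A14 passed too (limma adjusted p = 0.0288 and 0.0438), and without Clone 4 SLC39A4 passed (adjusted p = 0.0362).

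Of the 9 other exporters, 4 were tested, 0 passed and 1 had an unadjusted p below 0.05 (limma), against 3206 of all 11843 genes. The median log2 difference of the 4 was 0.0665. SLC30A7, a zinc transporter of the secretory pathway, averaged 6.29 FPKM in the clones and 7.91 in the resistant populations (log2 difference -0.29, limma adjusted p = 0.183). SLC30A5 and SLC30A6, which work as a pair in the secretory pathway, had log2 differences of 0.20 and 0.15 (limma adjusted p = 0.343 and 0.613), and SLC30A9 had -0.02 (adjusted p = 0.956). SLC30A2, SLC30A3, SLC30A8 and SLC30A10 were listed at 0 in all libraries. In the 3 comparisons by resistance, 0 importers and 0 other exporters passed, with 3, 0 and 0 importers and 0 exporters at an unadjusted p below 0.05 (limma) for the GNF-2 group against vehicle, the catalytic group against vehicle and the catalytic against the GNF-2 group. Of all 11843 genes, 1315, 319 and 577 had such a p in these comparisons.

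**Figure D4:**
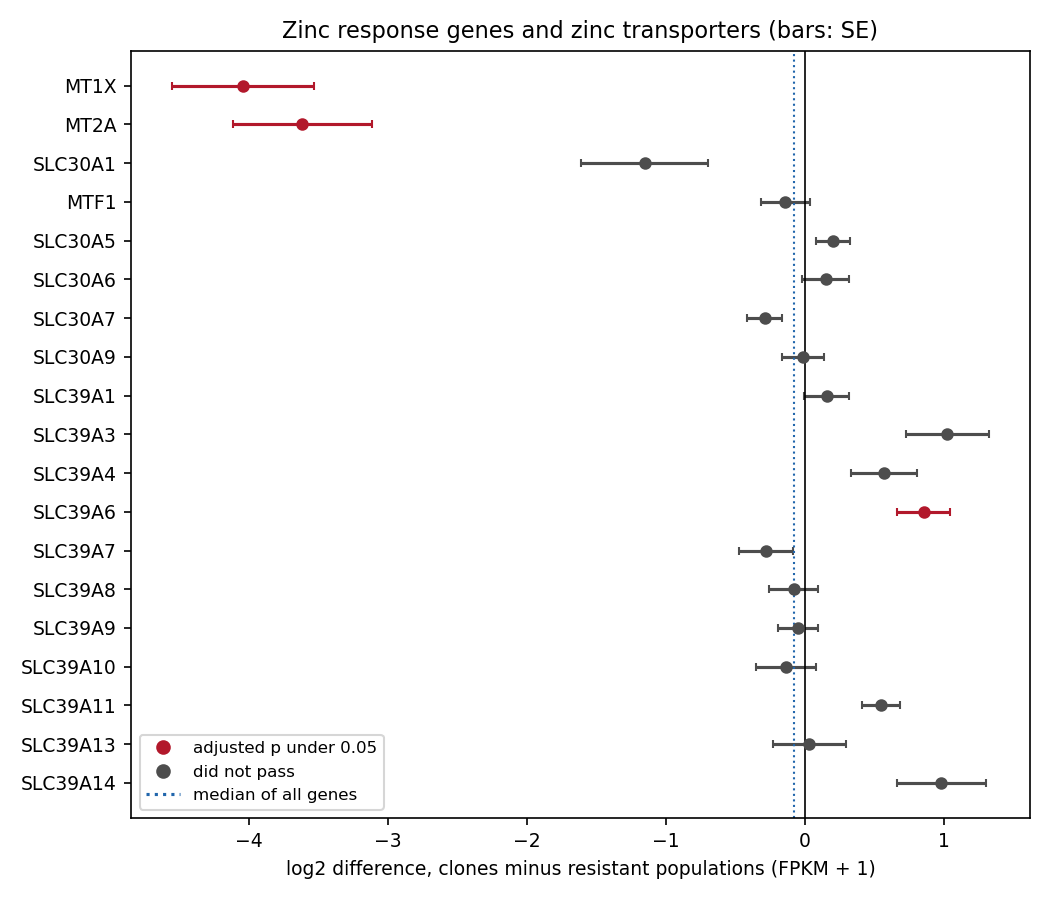
Log2 difference (FPKM + 1), clones minus resistant populations, of MT1X, MT2A, SLC30A1, MTF1 and the tested zinc transporters; bars are SEs, red points passed at an adjusted p of 0.05 and the dotted line is the median of all genes at -0.079. MT1X and MT2A stand apart on the left, SLC39A6 is the only red point on the right, and SLC39A3 and SLC39A14 lie near 1 without passing.

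The genes nearest to MT2A and MT1X on chromosome 16 were examined after values had been seen. Of 10 tested genes within 500 kb of the pair, 0 passed between clones and resistant populations and 3 had an unadjusted p below 0.05 (limma). Of all 11843 genes, 3206 had such a p. Among the 10 neighbours 4 had a negative log2 difference, and the median was 0.0764. The lowest was CETP, which encodes a plasma lipid transfer protein, at -1.31 (limma adjusted p = 0.147), with 1.20 to 8.16 FPKM in the clones and 5.98 to 14.9 in the resistant populations. The highest was OGFOD1, a hydroxylase of a ribosomal protein, at 0.46 (limma adjusted p = 0.107). NUP93, a nuclear pore protein and the tested gene next to MT1X, had 0.20 (limma adjusted p = 0.331).

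**Figure D5:**
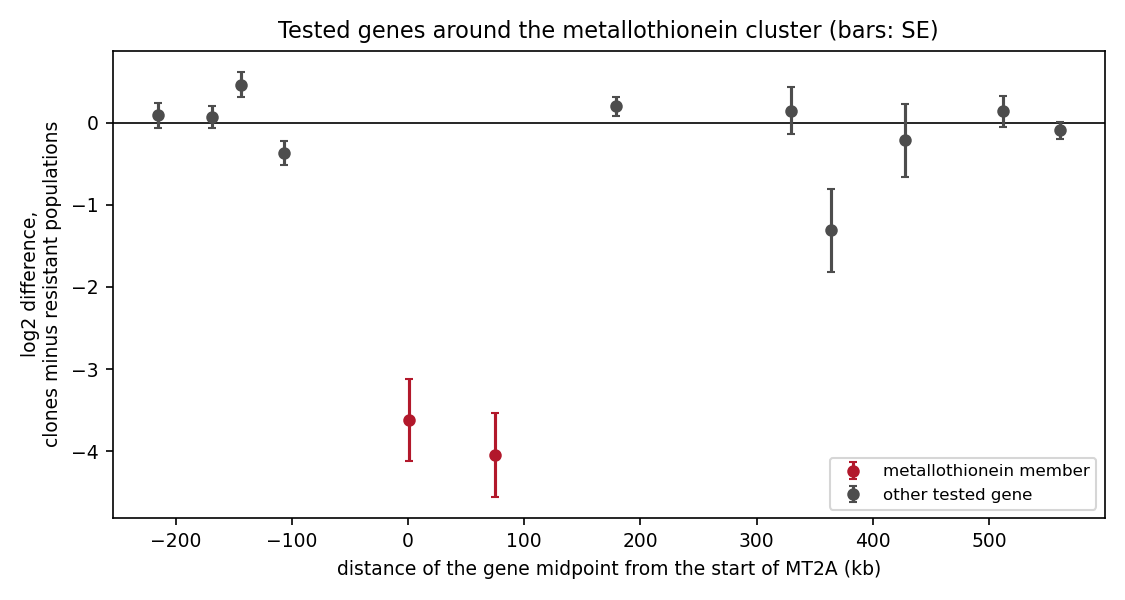
Log2 difference, clones minus resistant populations, of the tested genes around the metallothionein cluster, by distance of the gene's midpoint from the start of MT2A in kb; bars are SEs, with MT2A and MT1X in red. The red points lie at -3.62 and -4.04, and the 10 other genes lie between -1.31 and 0.46.

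The genes whose pattern over the 8 libraries was most like the summed metallothionein level were sought by Pearson's r on the log2(FPKM + 1) scale among 2821 genes with an SD of at least 0.5. The 8 libraries fall into clones and populations, so any gene that separates these scores high, and r is given as a description. The 3 named genes with the highest r were ZNF449, a zinc finger protein, at 0.995, GOLGA2, a Golgi matrix protein, at 0.991, and TSC1, an inhibitor of mTORC1, at 0.990. The other 3 of the highest 6 are entries known only by a transcript identifier (r of 0.991 to 0.996). TSC1 had 4.99 to 8.01 FPKM in the clones, 14.0 to 18.3 in the resistant populations and 14.3 in vehicle. GOLGA2 had 13.2 to 20.7 FPKM in the clones, 28.2 to 35.4 in the resistant populations and 26.9 in vehicle. Both ranges are far narrower in fold than that of the metallothioneins. At the opposite end stood HSPA8, the constitutive HSP70 chaperone, at -0.977, TMEM147 at -0.974, ALDH16A1 at -0.968 and TALDO1, a transaldolase of the pentose phosphate pathway, at -0.961. HSPA8 had 527 to 745 FPKM in the clones, 227 to 239 in the resistant populations and 294 in vehicle.

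SLC30A1 had other companions. The 4 genes most like it were HK2, a hexokinase that starts glycolysis, at 0.961, RBAK at 0.952, FAM46C at 0.950 and MED15, a subunit of the Mediator complex, at 0.947. HK2 had 58.0 to 108 FPKM in the clones, 83.5 to 293 in the resistant populations and 282 in vehicle, so its groups overlapped as those of SLC30A1 did.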

How the data were processed

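Total RNA (RNeasy Plus Mini) of 8 KCL-22 libraries was sequenced after standard Illumina library preparation, per the labels' protocols. The deposited table gives FPKM, which the authors made with TopHat 1.3 and Cufflinks 1.3 on GRCh37, per the submitters' processing notes. The header names no unit, which was taken from the tool and the values. Of 31402 entries, 70 with a missing value were left out, and 11843 with a mean FPKM of at least 1 were tested. No counts were used, and precision rests on the spread between libraries. Within a fitted group these are different populations, different clones or both, so that spread mixes differences of inhibitor, origin and clone. The labels name no repeat culture of any population or clone, so the spread between repeat cultures was not measured.

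On log2(FPKM + 1), which understates changes of low genes, limma 3.58.1 (R 4.3.3; lmFit, eBayes with trend) fitted 1 mean per resistance group, or per kind of library for clones against resistant populations, over all 8 libraries (4 and 5 residual degrees of freedom), two-sided, with Benjamini-Hochberg adjustment over all genes and a threshold of 0.05. Vehicle, and Clone 4 in the resistance model, have 1 library each and were given the spread of the remaining libraries. The fit was tested on simulated data in which the libraries were drawn independently, so that test does not cover clones and populations of shared origin. The alternatives used another pseudocount (0.1 or 5), another filter (none, or a mean of at least 5), median-ratio and quantile scaling, variance without trend, a clone or resistance-group covariate, the population of origin as a block, vehicle among the populations, and leaving out in turn each library of the catalytic and GNF-2 groups and, for clones against populations only, Clone 4.

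The members and lists were chosen with earlier results of these data known. Named genes were all 10 members, ABL1 and BCR, members of each list past the threshold and then the largest changes up to 4 in all, and the genes closest in pattern; the chromosomal neighbours were added later. For ABL1 and BCR, whose symbol can recur, the entry with the highest mean was used. Tables and figures were made with Python 3.11.15, pandas 2.3.3, numpy 2.4.6 and matplotlib 3.10.9.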

Additional observations from a re-analysis of the deposited data

Results flagged for a closer look

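Among 20 genes of the text compared over the 4 clones, 2 had a clone far from the other 3 by Dixon's criterion at the 95% level; chance gives about 1 such group in 20. NQO1, a quinone reductase of the oxidant response, had 54.9 FPKM in Clone 4, against 12.8 in Clone 3, 4.33 in Clone 2 and 4.18 in Clone 1 (gap of 0.8295 of the range). SLC7A11, the cystine importer, had 3.63 FPKM in Clone 2, against 14.4 in Clone 1, 15.97 in Clone 3 and 16.1 in Clone 4 (gap of 0.863 of the range). MT1X, MT2A, SLC30A1 and MTF1 were among the 20 genes and had no such clone.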

How the results depend on the processing

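MT1X and MT2A kept their direction between clones and resistant populations in every alternative run, with log2 differences of -4.46 to -3.75 and -3.98 to -3.28 when 1 library was left out; both passed in each of those fits (limma adjusted p = 0.00234 to 0.0441 and 0.00512 to 0.0495). The exceptions to passing were the resistance-group covariate and the block on population of origin given above. The number of genes passing in this comparison, 883, was 1851 with vehicle among the populations, 238 with that covariate, 13 with that block, and 128 (without the nilotinib population) to 1086 (without Clone 2) with 1 library left out. The GNF-2 group against vehicle gave 11 genes, 79 with no filter, 7 at a mean of at least 5, and 1 to 13 with 1 library left out. The catalytic group against vehicle gave 4, 59 with no filter, 2 at a mean of at least 5, 1 under either rescaling, and 0 to 1 with 1 library left out. The catalytic against the GNF-2 group gave 4, 2 at a mean of at least 5, and 1 to 10 with 1 library left out. The cause of these shifts was not tested.

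Against vehicle, the clone covariate turned the sign in the GNF-2 group for MT1X (0.38), MT2A (0.19) and MTF1 (0.035) and in the catalytic group for MT1X (0.57) and MT2A (0.48). With 1 library left out, the catalytic group's difference from vehicle ran from -1.56 to 0.61 for MT1X and from -1.48 to 0.48 for MT2A, positive without Clone 3, and that of the GNF-2 group from -0.13 to 0.050 for MTF1, positive without Clone 1. Between clones and resistant populations, MTF1 turned positive with quantile normalization (0.080). SLC30A9 turned positive with median ratios (0.096), quantile normalization (0.048) and vehicle among the populations (0.0061), and ran from -0.11 to 0.091 with 1 library left out, positive without the GNF-2 population, Clone 4 or Clone 3. SLC30A6 ran from -0.025 to 0.28, negative without the imatinib population. GCLC passed under median ratios, quantile normalization and vehicle among the populations (limma adjusted p = 0.0452, 0.0389 and 0.0257). The labels give no replicate numbers that the groups share; the pairing of clones with populations is that of the labelled origin, and the block on it ended the calls of MT1X, MT2A and SLC39A6.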

Other observations

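Copper is another metal that metallothioneins bind. Of 9 genes of copper handling, all were tested between clones and resistant populations, 0 passed and 2 had an unadjusted p below 0.05 (limma). Of all 11843 genes, 3206 had such a p. The median log2 difference of the 9 was -0.209, against -0.079 over all genes. SOD1, the copper and zinc superoxide dismutase, averaged 333 FPKM in the clones and 270 in the resistant populations (log2 difference 0.30, limma adjusted p = 0.147). The copper pump ATP7A averaged 4.60 and 6.16 FPKM (log2 difference -0.35, limma adjusted p = 0.186), the importer SLC31A1 21.0 and 26.2 FPKM (-0.33, adjusted p = 0.264), and CCS, the copper chaperone of SOD1, 31.9 and 39.9 FPKM (-0.32, adjusted p = 0.194).

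Of 10 genes that respond to metals, oxidants or misfolded proteins, all were tested and 0 passed, and the median log2 difference was 0.201. An unadjusted p below 0.05 (limma) was found for 3206 of all 11843 genes and for 1 of the 10. That gene was GCLC, the catalytic subunit of glutathione synthesis, with 13.0 to 25.3 FPKM in the clones, 6.16 to 11.6 in the resistant populations and 5.94 in vehicle (log2 difference 0.95, limma adjusted p = 0.0683). HMOX1, the heme oxygenase that many metals induce, had 0.176 to 8.95 FPKM in the clones, 2.34 to 6.50 in the resistant populations and 3.49 in vehicle (log2 difference -0.65, limma adjusted p = 0.623). In the comparisons by resistance 0 genes of either list passed, with 1, 1 and 0 copper genes and 3, 1 and 1 stress genes at an unadjusted p below 0.05 (limma) for the GNF-2 group against vehicle, the catalytic group against vehicle and the catalytic against the GNF-2 group. Of all 11843 genes, 1315, 319 and 577 had such a p in these comparisons.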
